A study of Mus musculus with 12 samples.

Results

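Pu.1-URE-/- mice lack the upstream regulatory element (URE) of Spi1, the gene that encodes the transcription factor PU.1. Their Flk2- LSK bone marrow cells were set against those of Wild-type mice. The comparison rested on 6 of the 12 polyA RNA libraries of the study: 3 from Pu.1-URE-/- mice and 3 from Wild-type mice, each with a mouse number of its own. LSK stands for cells that lack lineage markers and carry Sca-1 and Kit, the compartment that holds blood stem cells and early progenitors, and Flk2 (the product of Flt3) marks its more committed members. The Pu.1-URE-/- and Wild-type mice carried no Mdmx transgene, and neither genotype name holds another allele or a treatment. The other 6 libraries came from Mdmx-Tg/Pu.1-URE-/- and Mdmx-Tg mice, both with a transgene for MDMX, and were used for the shared estimate of spread and for a repeat of the comparison in that background. Age, sex and strain are not given in the labels, the cells that use the transgene's promoter are not named there, and the deletion is in the genotype of the whole mouse.

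PU.1 is an ETS-family factor that binds DNA at purine-rich PU-boxes and that myeloid and B-lymphoid cells need. The URE is a distal enhancer of Spi1, and mice without it are known for low PU.1 in the marrow and for acute myeloid leukaemia. Granulocyte differentiation is driven by C/EBP factors and Gfi1 and fills azurophil granules first, then specific and gelatinase granules. High PU.1 is known to favour the macrophage over the granulocyte fate.

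The data are read counts per gene. Each of the 12 libraries held 47231546 to 55030263 estimated reads in annotated genes, and levels are given as counts per 1000000 reads after scaling (CPM). Pairs of these 6 libraries correlated at 0.864 to 0.912 within a genotype and at 0.805 to 0.848 between the genotypes on the log2 CPM scale. The coefficient of variation between libraries of a genotype, as edgeR estimated it, was 0.796. Immunoglobulin genes took 0.573%, 1.10% and 3.07% of the reads of Pu.1-URE-/- 1, 2 and 3, against 31.2%, 10.3% and 0.427% in Wild-type 1, 2 and 3. Of the 6 libraries Wild-type 2 alone had high Y-linked expression (222 CPM, against 2.16 to 5.26 CPM in the other 5), so sex was not matched between the genotypes. Of the sorting-gate genes, Kit stood at 214, 228 and 171 CPM in Pu.1-URE-/- and at 274, 328 and 311 CPM in Wild-type (log2 change -0.57, edgeR adjusted p = 0.135). Ly6a, the Sca-1 gene, stood at 43.8, 44.0 and 66.7 CPM in Pu.1-URE-/- and at 97.2, 29.7 and 15 CPM in Wild-type (log2 change 0.12, adjusted p = 0.946). Flt3 stood at 10.8, 39.2 and 51.9 CPM in Pu.1-URE-/- and at 12.3, 7.06 and 13.6 CPM in Wild-type (log2 change 1.63, adjusted p = 0.156). Kit was lower in every Pu.1-URE-/- library than in every Wild-type library, and the other gate genes overlapped. Every p-value here measures the spread between libraries of a genotype.

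Loss of the element came with 577 genes higher and 130 genes lower, out of 15012 tested (edgeR's quasi-likelihood test, Benjamini-Hochberg adjusted p below 0.05). That is 4.71% of the genes tested, with 3.84% higher and 0.866% lower. The median log2 change was 2.19 among the genes called higher and -1.72 among those called lower. Of these, 200 rose and 33 fell at least 8-fold. The genotypes overlapped in none of the genes called higher and in 1 of those called lower, where 29.7% of all genes tested did not overlap. The genes called higher held 29.4%, 16.1% and 25.3% of the reads of Pu.1-URE-/- 1, 2 and 3, against 3.00%, 3.36% and 4.61% in Wild-type 1, 2 and 3. Their share was lowest in Pu.1-URE-/- 2 among the Pu.1-URE-/- libraries and still over 3 times that of any Wild-type library. The genes called lower held 0.375%, 0.578% and 0.375% of the reads in Pu.1-URE-/-, against 2.32%, 1.5% and 1.48% in Wild-type. Both sets of genes were chosen from these same libraries, so the direction of these shares follows from the choice. The count moved with single libraries. Leaving out Pu.1-URE-/- 1 gave 317 calls, Pu.1-URE-/- 3 gave 303 when left out, Wild-type 2 gave 299 and Wild-type 3 gave 394. Without both Wild-type libraries of over 10% immunoglobulin reads, which leaves 1 Wild-type library, 23 genes were called, 19 of them among the 707.

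**Figure D1:**
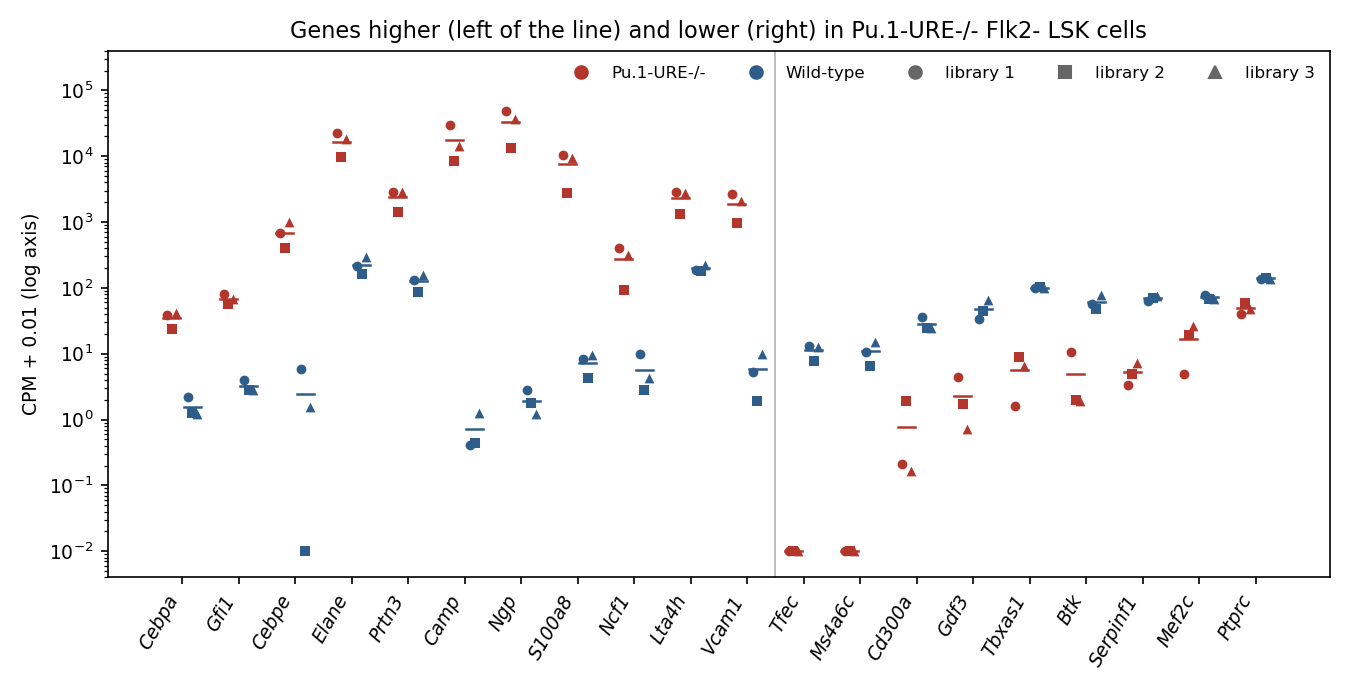
CPM (log axis, 0.01 added) of 20 genes in each library, Pu.1-URE-/- in red left of Wild-type in blue, with a symbol for each library and a bar at the mean of 3. The genes left of the line were called higher and those right of it lower, and Tfec and Ms4a6c had no read in Pu.1-URE-/-.

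Spi1 (GRCm38 chromosome 2, 91082390 to 91115756, plus strand) gave no clear difference in its total. It stood at 8.73, 8.73 and 23.9 CPM in Pu.1-URE-/- and at 38.0, 5.34 and 8.08 CPM in Wild-type. The genotypes overlapped, and Wild-type 1 was the highest of the 6. The log2 change was -0.31 (SE 1.18, adjusted p = 0.934), and it was 1.05 without Wild-type 1 (adjusted p = 0.753). The main coding transcript Spi1-201 held 414, 496 and 1143 estimated reads in Pu.1-URE-/- and 1537, 234 and 408 in Wild-type. The short noncoding transcript Spi1-202, which starts upstream of Spi1-201, with 2 exons between 91082408 and 91090310, had 0 reads in each Pu.1-URE-/- library and 55, 53 and 65.5 in Wild-type. In the libraries with the Mdmx transgene, Spi1-202 had 0 reads in each Mdmx-Tg/Pu.1-URE-/- library and 213, 321 and 105 in Mdmx-Tg. The coding transcript Spi1-204, which starts at 91082390, held 9.68, 0 and 49.3 estimated reads in Pu.1-URE-/- and 81.9, 0 and 33.4 in Wild-type. With the transgene it held 15.4, 0 and 0 in Mdmx-Tg/Pu.1-URE-/- and 98.65, 27.75 and 2.38 in Mdmx-Tg. Total Spi1 counts, which overlapped, do not check the genotype labels here. Spi1-202 was read only in libraries of genotypes that keep the element, and Spi1-204 was read with and without it. The place of the deleted bases is not given in the labels, so whether a read of Spi1 crosses them was not tested.

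The genes beside Spi1 were examined because the deletion lies in this neighbourhood. Of 14 other genes that start within 250 kb of the Spi1 start and were tested, 0 were called by edgeR (3 at an unadjusted p below 0.05, and 2 by DESeq2, Rapsn and Ndufs3), and Rapsn and Slc39a13 lay furthest from 0 among the 11 with at least 2 CPM on average in a genotype. Rapsn encodes rapsyn, which clusters acetylcholine receptors at the muscle synapse, and starts at base -46770 from the Spi1 start. It stood at 26.4, 23.6 and 28.4 CPM in Pu.1-URE-/- and at 3.16, 0.599 and 5.61 CPM in Wild-type. All Pu.1-URE-/- libraries lay above all Wild-type libraries, as they did for 15.9% of the genes tested. The difference did not pass the threshold (log2 change 3.06, SE 1.203, edgeR adjusted p = 0.188). In the Mdmx-Tg background, from other libraries, its log2 change was 4.10 (adjusted p = 0.139). Slc39a13, a zinc transporter gene that starts at base -11973, stood at 27.2, 14.9 and 34.4 CPM in Pu.1-URE-/- and at 10.4, 11.7 and 5.17 CPM in Wild-type. Its log2 change was 1.49 (SE 0.63, adjusted p = 0.222) here and -0.85 in the Mdmx-Tg background. The 9 other neighbours at this level had log2 changes between -0.47 and 0.38.

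**Figure D2:**
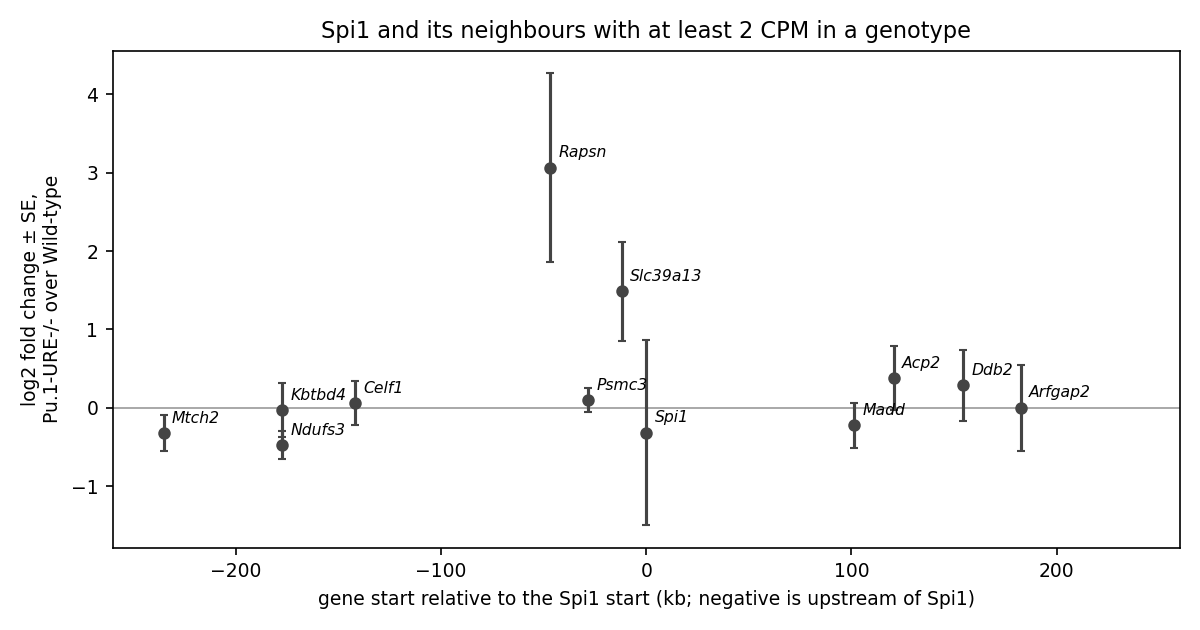
Log2 fold change of Pu.1-URE-/- over Wild-type (vertical axis, bars show the SE of the fit) for Spi1 and its neighbours with at least 2 CPM in a genotype, against the distance of the gene's start from the Spi1 start in kb. Rapsn at 3.06 and Slc39a13 at 1.49 stand above the others, and edgeR called none.

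A few granulocyte transcription factor genes rose. Of 33 tested granulocyte and monocyte factors 4 rose and 0 fell, against 3.84% and 0.866% of all genes, with a median log2 change of 0.65, against -0.03 over all genes. Cebpa, which starts granulocyte commitment, stood at 38.3, 23.8 and 41.1 CPM in Pu.1-URE-/- and at 2.17, 1.25 and 1.19 CPM in Wild-type. Gfi1, a repressor of monocyte genes in granulocyte progenitors, stood at 80.4, 56.0 and 67.5 CPM in Pu.1-URE-/- and at 3.997, 2.80 and 2.85 CPM in Wild-type. The lowest Pu.1-URE-/- library was above the highest Wild-type library by a wide margin for both genes. Their log2 changes were 4.48 (SE 0.47) and 4.40 (SE 0.47), each at an adjusted p of 0.000581. Cebpe, which acts late and turns on specific granule genes, stood at 674, 400 and 998 CPM in Pu.1-URE-/- and at 5.87, 0 and 1.53 CPM in Wild-type. It rose 281-fold (log2 change 8.14, SE 1.75, adjusted p = 0.0229), and the call ended without Pu.1-URE-/- 1, Pu.1-URE-/- 3 or Wild-type 3 (adjusted p up to 0.0995). Of these 3 factors only Cebpe had a Wild-type library without a read. The helix-loop-helix inhibitor gene Id2 rose 4.56-fold (adjusted p = 0.0381, and up to 0.145 without any 1 library but Pu.1-URE-/- 2). Among 19 tested ETS-family genes 1 rose: Ets1, with 155, 50.2 and 112 CPM in Pu.1-URE-/- and 7.25, 3.50 and 12.8 CPM in Wild-type (13.4-fold, adjusted p = 0.0343, and up to 0.142 without any 1 library but Pu.1-URE-/- 2).

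Azurophil granule genes encode the proteases and peroxidase of the first granules a neutrophil precursor makes. Of 25 listed genes 23 were tested, and 14 rose, 0 fell and 9 were not called (median log2 change 2.79, with 3 members below 0). The neutrophil elastase gene Elane stood at 22490, 9697 and 17980 CPM in Pu.1-URE-/- and at 216, 162 and 294 CPM in Wild-type. Proteinase 3 (Prtn3), next to Elane on chromosome 10, stood at 2855, 1406 and 2888 CPM in Pu.1-URE-/- and at 132, 87.3 and 156 CPM in Wild-type. Both genes were read in every Wild-type library, and Pu.1-URE-/- 2 was the lowest of the 3 Pu.1-URE-/- libraries. Elane rose 74.7-fold (log2 change 6.22, SE 0.56, adjusted p = 0.000375) and Prtn3 19.02-fold (log2 change 4.25, SE 0.47, adjusted p = 0.000751). The cystatin gene Cst7 rose 18.8-fold, the tetraspanin gene Cd63 8.58-fold and the membrane gene Ms4a3 20.03-fold. Nkg7, on this list as a granule membrane gene and also a marker of NK cells, stood at 3942, 2526 and 3552 CPM in Pu.1-URE-/- and at 92.4, 106 and 244 CPM in Wild-type. Of the other T and NK cell markers, Klrb1c stood at 8.34 CPM or less and Trbc2 at 3.00 CPM or less in every library, Ncr1 had no read in Pu.1-URE-/-, and Cd3g none in any of the 6. The lysozyme gene Lyz2 stood at 1201, 360 and 753 CPM in Pu.1-URE-/- and at 189, 164 and 202 CPM in Wild-type (4.17-fold, adjusted p = 0.00928, 0.0565 without Wild-type 2). The proteoglycan core gene Srgn rose 2.58-fold, and that call too ended without Wild-type 2 (adjusted p = 0.0536).

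Sequences of 250 bases before the start were read for 453 of the genes called higher and 105 of those called lower (RefSeq promoters, GRCm38.p6). They were searched on both strands for GAGGAA, the core of a PU-box (TTCCTC on the other strand), and for TTGCNNAA, a C/EBP site (TTNNGCAA on the other strand). At least 1 PU-box core stood in 27.4% of the promoters of genes called higher and 28.6% of those of genes called lower, against 22.3% of the 10604 promoters of genes tested and 23.1% of all 27018 in the table. A C/EBP match stood in 12.4% of the promoters of genes called higher and in 11 of the 105 of genes called lower, against 7.77% of those of genes tested and 9.56% of all. These shares are descriptions, and a match is not evidence of binding. The promoters shown are those of the neighbouring proteases Elane (chr10:79886062-79886311, plus strand) and Prtn3 (chr10:79879417-79879666, plus strand), of the granule gene Ngp (chr9:110419558-110419807, plus strand) and of Tbxas1 (chr6:38918736-38918985, plus strand), which was called lower. They are written 5′ to 3′ up to the base before the start, with matches in capitals.
Elane: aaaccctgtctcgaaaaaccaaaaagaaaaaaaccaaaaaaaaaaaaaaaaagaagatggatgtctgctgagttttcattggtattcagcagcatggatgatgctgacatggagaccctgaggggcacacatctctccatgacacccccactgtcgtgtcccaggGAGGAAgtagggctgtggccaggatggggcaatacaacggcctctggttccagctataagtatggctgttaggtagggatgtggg
Prtn3: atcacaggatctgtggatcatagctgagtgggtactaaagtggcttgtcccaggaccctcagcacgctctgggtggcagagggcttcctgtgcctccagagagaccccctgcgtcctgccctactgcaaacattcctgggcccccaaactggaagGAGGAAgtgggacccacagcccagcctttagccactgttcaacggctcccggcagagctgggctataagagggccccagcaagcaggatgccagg
Ngp: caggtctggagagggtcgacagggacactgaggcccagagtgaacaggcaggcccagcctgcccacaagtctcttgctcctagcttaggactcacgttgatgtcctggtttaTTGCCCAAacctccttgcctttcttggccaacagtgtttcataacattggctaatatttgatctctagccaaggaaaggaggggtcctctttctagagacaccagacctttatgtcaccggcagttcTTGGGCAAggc
Tbxas1: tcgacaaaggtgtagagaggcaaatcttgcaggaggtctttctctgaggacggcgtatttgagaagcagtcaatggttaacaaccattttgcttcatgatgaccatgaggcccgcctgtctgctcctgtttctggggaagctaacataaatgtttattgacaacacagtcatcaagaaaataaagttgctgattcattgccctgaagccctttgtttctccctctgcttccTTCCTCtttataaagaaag
The first base of the PU-box core lies 85 bases before the start in Elane, 95 in Prtn3 and 19 in Tbxas1, where it is on the other strand. The C/EBP matches of Ngp begin 138 and 11 bases before the start. Elane and Prtn3, which rose, and Tbxas1, which fell, each hold 1 PU-box core in this window. Of other promoters read, that of Lta4h holds 1 and those of S100a8 and Mpo hold 2, and all 3 genes rose. Camp, Ngp and Ncf1, which rose, and Btk, which fell, hold 0. These genes were picked as examples, and whether a PU-box core goes with the direction was not tested.

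Specific and gelatinase granule genes are turned on later by a neutrophil precursor. Of 46 listed genes 34 were tested, and 24 rose, 0 fell and 10 were not called (median log2 change 6.95, with 2 members below 0). The cathelicidin gene Camp (chromosome 9, 109847379 to 109849617) stood at 30220, 8354 and 14240 CPM in Pu.1-URE-/- and at 0.407, 0.436 and 1.25 CPM in Wild-type. Ngp, a cathelin-like granule protein gene of the same chromosome, stood at 49210, 13400 and 36340 CPM in Pu.1-URE-/- and at 2.80, 1.78 and 1.21 CPM in Wild-type. The calcium-binding protein gene S100a8 stood at 10450, 2808 and 9556 CPM in Pu.1-URE-/- and at 8.33, 4.25 and 9.42 CPM in Wild-type. All 3 genes stood under 10 CPM in every Wild-type library, and Pu.1-URE-/- 2 was again the lowest Pu.1-URE-/- library. The log2 changes were 14.60 for Camp (SE 1.09, adjusted p = 0.000181), 14.06 for Ngp (SE 1.44, adjusted p = 0.000518) and 10.02 for S100a8 (SE 0.81, adjusted p = 0.000198). Per transcript length, Camp, Ngp, S100a8 and Elane were the highest of the named genes in Pu.1-URE-/-, at 17080 to 53300, 14710 to 46300, 11510 to 37470 and 13970 to 27820 TPM over the 3 libraries. Lcn2, which binds iron carriers of bacteria, stood at 177, 36.3 and 115 CPM in Pu.1-URE-/- and at 0.271, 0 and 0 CPM in Wild-type. Lactoferrin (Ltf), a marker of the same granules, stood at 30.02, 3.50 and 6.05 CPM in Pu.1-URE-/- and at 0.203, 0 and 0 CPM in Wild-type (adjusted p = 0.0496, and up to 0.199 without any 1 library but Wild-type 1). Lcn2 and Ltf are named after their values were seen. Retnlg, a secreted protein gene of neutrophils, exceeded Wild-type by at least 3188-fold, and the neutrophil surface gene Ly6g by at least 1238-fold, each against a floor of 3 reads over the Wild-type group, which had none. Mmp8, which encodes the neutrophil collagenase, had 0 reads in all Pu.1-URE-/- libraries and 6 reads in Wild-type 3.

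**Figure D3:**
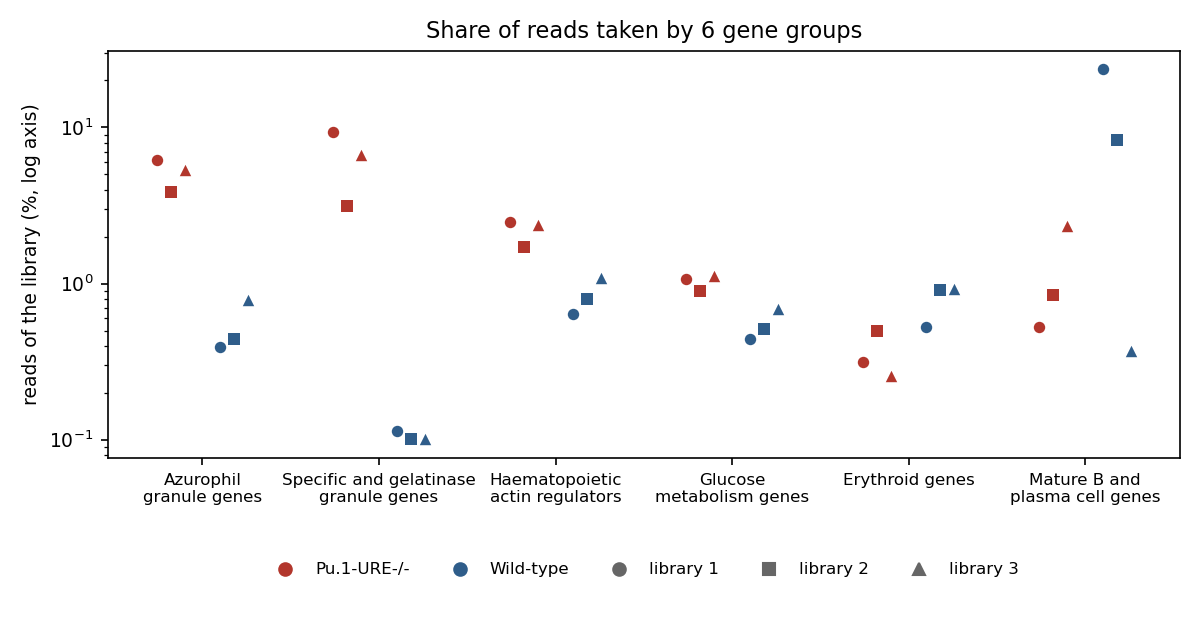
Share of each library's reads (percent, log axis) that 6 gene groups took, Pu.1-URE-/- in red left of Wild-type in blue, with a symbol for each library. Azurophil granule genes took 3.89% to 6.16% in Pu.1-URE-/- and 0.392% to 0.785% in Wild-type, and specific and gelatinase granule genes 3.12% to 9.30% in Pu.1-URE-/- and 0.100% to 0.113% in Wild-type.

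Several of the largest rises were of genes outside the granule lists. Thbs4, a thrombospondin of the extracellular matrix, stood at 241, 82.3 and 236 CPM in Pu.1-URE-/- and had no read in Wild-type, a difference of at least 10240-fold. Il1r2, the decoy receptor for interleukin-1, stood at 78.3, 30.5 and 121 CPM in Pu.1-URE-/- and was likewise unread in Wild-type (at least 4208-fold, adjusted p = 0.00672). Ednra, an endothelin receptor gene, was at least 3496-fold higher, the lipid transporter gene Abca13 at least 2781-fold, the maltase gene Mgam at least 2405-fold and the small GTPase gene Rhou at least 2015-fold. Lin28a, an RNA-binding protein gene of fetal haematopoiesis and stem cells, stood at 72.4, 9.52 and 38.3 CPM in Pu.1-URE-/- and had no read in Wild-type (at least 2201-fold, adjusted p = 0.00314). In all, 48 of the genes called higher had no read in Wild-type, and 12 of those called lower had none in Pu.1-URE-/-.

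NADPH oxidase genes encode the complex that makes superoxide in phagocytes. Of 13 tested genes 6 rose, 0 fell and 7 were not called (median log2 change 1.08, with 4 members below 0). Those that rose included the membrane subunit gene Cyba (adjusted p = 0.0219, and up to 0.107 without Pu.1-URE-/- 1, Pu.1-URE-/- 3, Wild-type 2 or Wild-type 3) and the proton channel gene Hvcn1 (adjusted p = 0.0442, and up to 0.179 without any 1 library). The organizer subunit Ncf1 stood at 409, 91.2 and 312 CPM in Pu.1-URE-/- and at 9.82, 2.81 and 4.25 CPM in Wild-type. Ncf4 stood at 1160, 428 and 1163 CPM in Pu.1-URE-/- and at 50.2, 30.6 and 38.1 CPM in Wild-type. The genotypes were far apart for both genes, which rose 48.2-fold (adjusted p = 0.00150) and 23.1-fold (adjusted p = 0.000751). The GTPase gene Rac2 rose 5.75-fold. Cybb, the catalytic membrane subunit and a known PU.1 target, stood at 91.7, 30.03 and 121 CPM in Pu.1-URE-/- and at 92.6, 29.3 and 5.48 CPM in Wild-type, with overlap and no call (log2 change 0.93, adjusted p = 0.637). Cyba and Cybb are named here after their values were seen. Of 31 tested genes of haem, iron and antioxidant defence 6 rose and 1 fell, against 3.84% and 0.866% of all genes. The median log2 change was -0.31, with 18 members below 0. In 8 members every Pu.1-URE-/- library lay above every Wild-type library, against 15.9% of all genes, and in 9 below, against 13.7%. The peroxiredoxin gene Prdx5 rose 8.35-fold, the glutathione reductase gene Gsr 9.003-fold and the microsomal glutathione transferase gene Mgst2 26.0-fold. Prdx4, the peroxiredoxin of the secretory pathway, fell to 19.3, 44.1 and 27.5 CPM in Pu.1-URE-/-, against 109, 77.2 and 77.2 CPM in Wild-type (2.90-fold lower, adjusted p = 0.0243, and up to 0.109 without Pu.1-URE-/- 1, Pu.1-URE-/- 3, Wild-type 1 or Wild-type 2).

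Receptors by which myeloid cells sense their surroundings changed in a few members of each family. Of 33 tested chemoattractant receptor genes 5 rose and 1 fell (median log2 change 0.55). The complement receptor gene C5ar1 stood at 46.7, 7.89 and 19.97 CPM in Pu.1-URE-/- and had no read in Wild-type (at least 1366-fold, adjusted p = 0.0135). The leukotriene B4 receptor gene Ltb4r1 stood at 602, 209 and 486 CPM in Pu.1-URE-/- and at 5.26, 0.0544 and 7.40 CPM in Wild-type (102-fold, adjusted p = 0.0155, 0.0568 without Wild-type 1). The adhesion receptor gene Adgrg3 of neutrophils rose 24.4-fold. Adgrl4, an adhesion receptor gene known from endothelium, fell to 33.7, 32.2 and 39.4 CPM in Pu.1-URE-/-, against 145, 167 and 190 CPM in Wild-type (4.76-fold lower, adjusted p = 0.00445). Of 11 tested Fc receptor genes 3 rose and 0 fell, against 3.84% and 0.866% of all genes. Their median log2 change was -0.81, with 6 members below 0. In 3 members every Pu.1-URE-/- library lay below every Wild-type library, against 13.7% of all genes, and in 5 above, against 15.9%. The shared signalling chain Fcer1g rose 11.4-fold, with 581, 234 and 386 CPM in Pu.1-URE-/- and 33.2, 27.1 and 44.7 CPM in Wild-type. Fcgr3, which belongs to the CD16/32 pair used to sort granulocyte-monocyte progenitors, rose 7.99-fold (adjusted p = 0.0148, and up to 0.0786 without Pu.1-URE-/- 1, Wild-type 1 or Wild-type 2). Of 46 tested lectins and immunoreceptors 9 rose and 1 fell, against 3.84% and 0.866% of all genes. Their median log2 change was 0.49, with 21 members below 0. Among the 18 tested C-type lectins 3 rose and 0 fell, with a median log2 change of -1.035 and 10 members below 0. The inhibitory lectin gene Clec12a stood at 511, 211 and 209 CPM in Pu.1-URE-/- and at 23.9, 22.1 and 24.3 CPM in Wild-type (13.3-fold, adjusted p = 0.000801), and the sensor of mycobacteria and dead cells Clec4e rose 17.3-fold. The inhibitory receptor gene Cd300a fell to 0.205, 1.88 and 0.158 CPM in Pu.1-URE-/-, against 35.6, 24.4 and 24.6 CPM in Wild-type (37.3-fold lower, adjusted p = 0.0228, and up to 0.0979 without any 1 library but Pu.1-URE-/- 2). Of 61 tested cytokine receptor genes 4 rose and 0 fell, which is 6.56% against 3.84% of all genes. Csf3r, the receptor gene for the granulocyte factor G-CSF, stood at 210, 116 and 197 CPM in Pu.1-URE-/- and at 24.0, 19.5 and 9.90 CPM in Wild-type, did not overlap and did not pass (log2 change 3.29, adjusted p = 0.0555). Csf3r is named after its values were seen.

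Some adhesion and actin genes rose. Of 40 tested integrin, selectin and adhesion genes 9 rose and 1 fell (median log2 change 0.20). Vcam1, the ligand of the integrin that tethers cells to the marrow niche, stood at 2661, 971 and 2069 CPM in Pu.1-URE-/- and at 5.35, 1.91 and 10.03 CPM in Wild-type. It rose 329-fold (log2 change 8.36, SE 0.88, adjusted p = 0.000581). Itga4, which encodes the alpha chain of that integrin, fell 2.07-fold (adjusted p = 0.0476), a call that ended without any 1 library but Pu.1-URE-/- 2 (adjusted p up to 0.197) and in 5 of the other alternatives. The leukocyte integrin beta chain Itgb2 stood at 494, 159 and 412 CPM in Pu.1-URE-/- and at 52.3, 18.7 and 40.6 CPM in Wild-type (9.55-fold). Ncam1, an adhesion molecule of nerve and NK cells, stood at 799, 268 and 539 CPM in Pu.1-URE-/- and at 0.994, 12.1 and 2.39 CPM in Wild-type (104-fold, adjusted p = 0.00261). Of 52 tested actin regulators of blood cells 16 rose and 2 fell (median log2 change 0.83), and 31 had every Pu.1-URE-/- library above every Wild-type library, against 15.9% of all genes. Tmsb4x, which encodes the actin-binding thymosin beta 4, stood at 6878, 3294 and 5904 CPM in Pu.1-URE-/- and at 506, 394 and 642 CPM in Wild-type (10.4-fold, adjusted p = 0.000518). Arhgdib, a GTPase inhibitor of leukocytes, rose 6.52-fold. The fall was in Capg and Nckap1l. The actin-capping gene Capg stood at 18.3, 46.1 and 32.6 CPM in Pu.1-URE-/-, against 205, 200 and 182 CPM in Wild-type (6.05-fold lower, adjusted p = 0.00147). Nckap1l, a subunit of the WAVE complex that starts branched actin, stood at 1.08, 2.32 and 1.99 CPM in Pu.1-URE-/-, against 69.6, 75.9 and 78.7 CPM in Wild-type. The libraries of each genotype lay close together, yet the adjusted p of 0.0293 was lost without any 1 of the 6 libraries (up to 0.139).

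Eicosanoids are lipid signals made from arachidonic acid, by lipoxygenase into leukotrienes and by cyclooxygenase into prostaglandins and thromboxane. Of 32 tested genes 6 rose and 1 fell (median log2 change 0.52). In the release and lipoxygenase arm 3 of 11 tested genes rose (median log2 change 0.13, with 4 members below 0). Lta4h, which makes the neutrophil attractant leukotriene B4, stood at 2873, 1304 and 2790 CPM in Pu.1-URE-/- and at 189, 183 and 225 CPM in Wild-type (11.7-fold, adjusted p = 0.000581). Alox5, the lipoxygenase, rose 50.0-fold (adjusted p = 0.0201, and up to 0.0989 without Pu.1-URE-/- 1, Pu.1-URE-/- 3, Wild-type 2 or Wild-type 3), and its partner Alox5ap rose 2.87-fold (adjusted p = 0.0358, and up to 0.147 without any 1 library but Pu.1-URE-/- 2). The log2 change of Alox5ap was -0.08 in the Mdmx-Tg background. The prostacyclin receptor gene Ptgir was at least 1448-fold higher, with no read in Wild-type. Tbxas1, thromboxane synthase, stood at 1.57, 8.96 and 6.45 CPM in Pu.1-URE-/-, against 99.5, 102 and 99.3 CPM in Wild-type. The Wild-type libraries barely differed, and Tbxas1 was 17.7-fold lower in Pu.1-URE-/- (log2 change -4.15, SE 0.78, adjusted p = 0.0120, 0.0628 without Pu.1-URE-/- 3).

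Genes of immunoreceptor signalling moved both ways. Of 86 tested genes 10 rose and 3 fell (median log2 change 0.52). None of 27 kinase genes rose, and Btk and Matk fell (Matk at an adjusted p of 0.0321, and up to 0.145 without any 1 library but Pu.1-URE-/- 2). Btk, the Tec-family kinase of B and myeloid cells and a known PU.1 target, stood at 10.6, 1.97 and 1.93 CPM in Pu.1-URE-/- and at 57.5, 48.1 and 77.0 CPM in Wild-type. Every Wild-type library was above every Pu.1-URE-/- library, and Btk was 12.6-fold lower (adjusted p = 0.0115, at most 0.0494 without any 1 library). Ptprc, which encodes the phosphatase CD45 of all white blood cells, stood at 40.6, 58.6 and 48.2 CPM in Pu.1-URE-/- and at 138, 143 and 138 CPM in Wild-type (2.85-fold lower, adjusted p = 0.00694). Adaptors and exchange factors supplied 7 of the 10 genes that rose, among them Rasgrp2, an activator of Rap1 (6.59-fold), and Vav1 (2.60-fold, adjusted p = 0.0148, and up to 0.0784 without Pu.1-URE-/- 1, Pu.1-URE-/- 3, Wild-type 1 or Wild-type 2). The inhibitory collagen receptor gene Lair1 rose 6.16-fold.

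The largest falls included genes of monocytes and macrophages. Of 36 tested monocyte and macrophage genes 4 fell and 2 rose, Vcam1 and Lyz2 (median log2 change -2.09), and 17 had every Pu.1-URE-/- library below every Wild-type library, against 13.7% of all genes. Tfec, a transcription factor of macrophages, had no read in any Pu.1-URE-/- library, against 13.1, 7.77 and 12.8 CPM in Wild-type (at least 586-fold lower, adjusted p = 0.00316). Ms4a6c, a membrane protein gene of monocytes, was likewise unread in Pu.1-URE-/-, against 10.7, 6.42 and 15.3 CPM in Wild-type (at least 564-fold lower, adjusted p = 0.00145). The growth factor gene Gdf3 stood at 4.42, 1.71 and 0.710 CPM in Pu.1-URE-/- and at 34.0, 44.9 and 64.5 CPM in Wild-type (21.0-fold lower, adjusted p = 0.00356). Serpinf1, which encodes the secreted factor PEDF, stood at 3.37, 4.89 and 7.27 CPM in Pu.1-URE-/- and at 63.1, 71.2 and 74.0 CPM in Wild-type (13.4-fold lower, adjusted p = 0.000473). Gpc4, a cell-surface heparan sulphate proteoglycan gene, had 2 reads in Pu.1-URE-/- and stood at 8.40, 7.28 and 8.46 CPM in Wild-type (adjusted p = 0.00465). The lipid carrier gene Apoe fell to 41.1, 93.2 and 43.4 CPM in Pu.1-URE-/-, against 264, 235 and 318 CPM in Wild-type (4.597-fold lower, adjusted p = 0.0207, and up to 0.104 without Pu.1-URE-/- 1, Pu.1-URE-/- 3, Wild-type 2 or Wild-type 3). Of the monocyte markers, Csf1r, the receptor gene of the macrophage growth factor, had no read in Pu.1-URE-/- but was also near 0 in Wild-type, at 1.60, 0.0726 and 0.918 CPM. Of 15 tested MHC class II genes 1 fell, H2-Eb1 (6.42-fold lower, adjusted p = 0.0185, and up to 0.0944 without Pu.1-URE-/- 1, Pu.1-URE-/- 3, Wild-type 1 or Wild-type 2). The 5 monocyte markers together stood at 14.9, 26.8 and 20.5 CPM in Pu.1-URE-/- and at 22.2, 16.6 and 78.2 CPM in Wild-type, with 1 of the 5 called lower. Nearly all of the Pu.1-URE-/- sum was Ccr2, at 14.8, 26.7 and 20.3 CPM, against 4.90, 8.64 and 28.5 CPM in Wild-type. Ly86, like Csf1r and Ms4a6c, had no read in Pu.1-URE-/-, against 2.89, 0.0182 and 12.4 CPM in Wild-type. F13a1 stood at 0.276 CPM or less in Pu.1-URE-/- and at 2.12, 1.43 and 21.2 CPM in Wild-type.

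A few stem cell transcription factors fell. Of 48 tested 4 fell and 0 rose, which is 8.33% against 0.866% of all genes, with a median log2 change of -0.56. Mef2c, a factor of lymphoid and stem cells, stood at 4.83, 18.9 and 26.5 CPM in Pu.1-URE-/- and at 78.8, 68.1 and 68.7 CPM in Wild-type (4.29-fold lower, adjusted p = 0.0298, and up to 0.0824 without Pu.1-URE-/- 2 or any Wild-type library). Mllt3 fell 3.76-fold (adjusted p = 0.0230, and up to 0.115 without Pu.1-URE-/- 1, Pu.1-URE-/- 3, Wild-type 1 or Wild-type 3) and Bcl11a 2.15-fold (adjusted p = 0.0361, and up to 0.146 without any 1 library but Pu.1-URE-/- 2). For Mllt3, Pu.1-URE-/- 2 was the library nearest to Wild-type. Among 30 tested stem cell surface and gate genes 1 fell, the lipid enzyme gene Hacd4 (6.20-fold lower, adjusted p = 0.00562), and Cd63 and Cd9, which granulocytes also express, rose. The median log2 change of these 30 genes was -0.68, with 22 members below 0. In 10 members every Pu.1-URE-/- library lay below every Wild-type library, against 13.7% of all genes, and in 4 above, against 15.9%. Of 11 tested imprinted growth genes Grb10, an adaptor that restrains growth factor receptors, fell to 27.4, 21.4 and 21.8 CPM in Pu.1-URE-/-, against 63.5, 64.1 and 69.2 CPM in Wild-type (2.79-fold lower, adjusted p = 0.00972, 0.0573 without Pu.1-URE-/- 3), and Igf2r rose 2.34-fold (adjusted p = 0.0255, and up to 0.124 without any 1 library but Pu.1-URE-/- 2).

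Other lineages changed little in call. Of 28 tested erythroid genes 0 were called by edgeR or DESeq2 (3 at an unadjusted p below 0.05), while 27 had a log2 change below 0, against 7701 of all 15012 genes, and 19 had every Pu.1-URE-/- library below every Wild-type library, against 13.7% of all (median -1.21). The carbonic anhydrase gene Car2 stood at 1165, 1826 and 1221 CPM in Pu.1-URE-/- and at 1965, 2926 and 2348 CPM in Wild-type (log2 change -0.78, adjusted p = 0.187). Of 29 tested megakaryocyte genes 2 rose, Cd9 (5.08-fold) and the thrombospondin gene Thbs1 (15.3-fold), and 2 fell, among them Tbxas1. Their median log2 change was -0.66, with 21 members below 0. In 12 members every Pu.1-URE-/- library lay below every Wild-type library, against 13.7% of all genes, and in 4 above, against 15.9%. Of 22 tested mast cell, basophil and eosinophil genes 2 rose and 0 fell, against 3.84% and 0.866% of all genes. Their median log2 change was -1.31, with 16 members below 0. The basophil protease gene Mcpt8 stood at 240, 229 and 321 CPM in Pu.1-URE-/- and at 11.5, 44.4 and 30.2 CPM in Wild-type (9.18-fold, adjusted p = 0.00371). Other mast cell and basophil markers did not rise with it. Fcer1a and Ms4a2 stood at no more than 1.97 CPM in any Pu.1-URE-/- library, against 3.07 to 21.7 and 4.83 to 13.7 CPM in Wild-type. Cpa3 stood at 62.9, 138 and 21.4 CPM in Pu.1-URE-/- and at 93.7, 172 and 151 CPM in Wild-type. Of 15 tested mature B cell and plasma cell genes 0 were called by edgeR (7 at an unadjusted p below 0.05, and 6 by DESeq2), with a median of -3.03, and immunoglobulin reads were high in 2 Wild-type libraries and low in the third. The 7 B and plasma cell markers together stood at 454, 925 and 2605 CPM in Pu.1-URE-/- and at 24460, 7456 and 432 CPM in Wild-type. With immunoglobulin genes left out of the fit 712 genes were called, 669 of them among the 707. The 9 neutrophil lineage markers together stood at 92230, 25020 and 62110 CPM in Pu.1-URE-/- and at 16.6, 8.09 and 16.4 CPM in Wild-type. More cells with neutrophil RNA and more of that RNA per cell cannot be told apart in these bulk libraries.

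Some genes of glucose storage and use rose. Of 43 tested glucose metabolism genes 12 rose and 2 fell (median log2 change 0.83; 1 of the 42 listed symbols stands for more than 1 gene ID). The glycogen and pentose phosphate genes carried 8 of the 12 rises, from 17 tested (median log2 change 1.42). Glycogenin (Gyg), which primes glycogen chains, stood at 276, 193 and 272 CPM in Pu.1-URE-/- and at 86.5, 98.6 and 91.0 CPM in Wild-type (2.68-fold, adjusted p = 0.00145). Glycogen synthase (Gys1) rose 8.27-fold and the branching enzyme gene Gbe1 4.05-fold. Among 26 glycolysis genes 4 rose and 2 fell. Gpi1, at the branch between glycolysis and the pentose phosphate pathway, stood at 1370, 648 and 1262 CPM in Pu.1-URE-/- and at 236, 183 and 196 CPM in Wild-type (5.34-fold). Ldhb, the lactate dehydrogenase form of the heart, fell to 15.1, 43.6 and 41.1 CPM in Pu.1-URE-/-, against 111, 102 and 101 CPM in Wild-type (3.15-fold lower, adjusted p = 0.0361, and up to 0.102 without any 1 library but Pu.1-URE-/- 2). Of 54 tested lysosome genes 6 rose and 1 fell, against 3.84% and 0.866% of all genes. The sulphatase gene Arsb rose 11.1-fold, and the cathepsin gene Ctsl fell 2.81-fold (adjusted p = 0.0108, and up to 0.0573 without Pu.1-URE-/- 1, Pu.1-URE-/- 3 or Wild-type 2). Of 40 tested secretory pathway genes 1 rose, a share below the 3.84% of all genes called higher. It was the disulphide oxidase gene Ero1l (9.07-fold, adjusted p = 0.00418).

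Few cell cycle, survival and signalling feedback genes were called. Of 30 tested mitosis genes 3 rose and 0 fell, while 29 had a log2 change above 0 (median 0.80) and 17 had every Pu.1-URE-/- library above every Wild-type library, against 15.9% of all genes. The 3 calls, Kif11, Nusap1 and Cdk1, each ended without Pu.1-URE-/- 1, Pu.1-URE-/- 3 or Wild-type 2, and those of Nusap1 and Cdk1 also without Wild-type 1 or Wild-type 3 (adjusted p up to 0.0571 for Kif11, 0.153 for Nusap1 and 0.186 for Cdk1). The Cdk1 call ended in 7 other alternatives as well. Of 30 DNA replication genes 1 rose, a share below the 3.84% of all genes called higher. It was Rrm2, the small subunit of ribonucleotide reductase (2.77-fold, adjusted p = 0.0208, and up to 0.0956 without any 1 library but Pu.1-URE-/- 2). Of 35 G1 genes 3 rose and 0 fell, against 3.84% and 0.866% of all genes. Among the 3 was Cdkn2d, the p19 inhibitor of cyclin D kinases. It stood at 249, 127 and 250 CPM in Pu.1-URE-/- and at 57.7, 46.1 and 49.3 CPM in Wild-type (4.08-fold, adjusted p = 0.00346). No edgeR call was made among 21 BCL2 family genes, 38 epigenetic regulators mutated in leukaemia, 22 NF-kappaB genes, 22 SOCS and PIM feedback genes, 18 immediate early genes, 9 interferon regulatory factors and 10 dendritic cell genes. Of these 139 genes 28 had an unadjusted p below 0.05, against 2968 of all 15012 genes, and DESeq2 called 13, against 1869 of all. Socs2, a brake on cytokine signalling, stood at 2.13, 9.01 and 1.24 CPM in Pu.1-URE-/- and at 62.8, 37.3 and 31.5 CPM in Wild-type (log2 change -3.41, adjusted p = 0.0562), short of the threshold although the genotypes did not overlap.

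**Figure D4:**
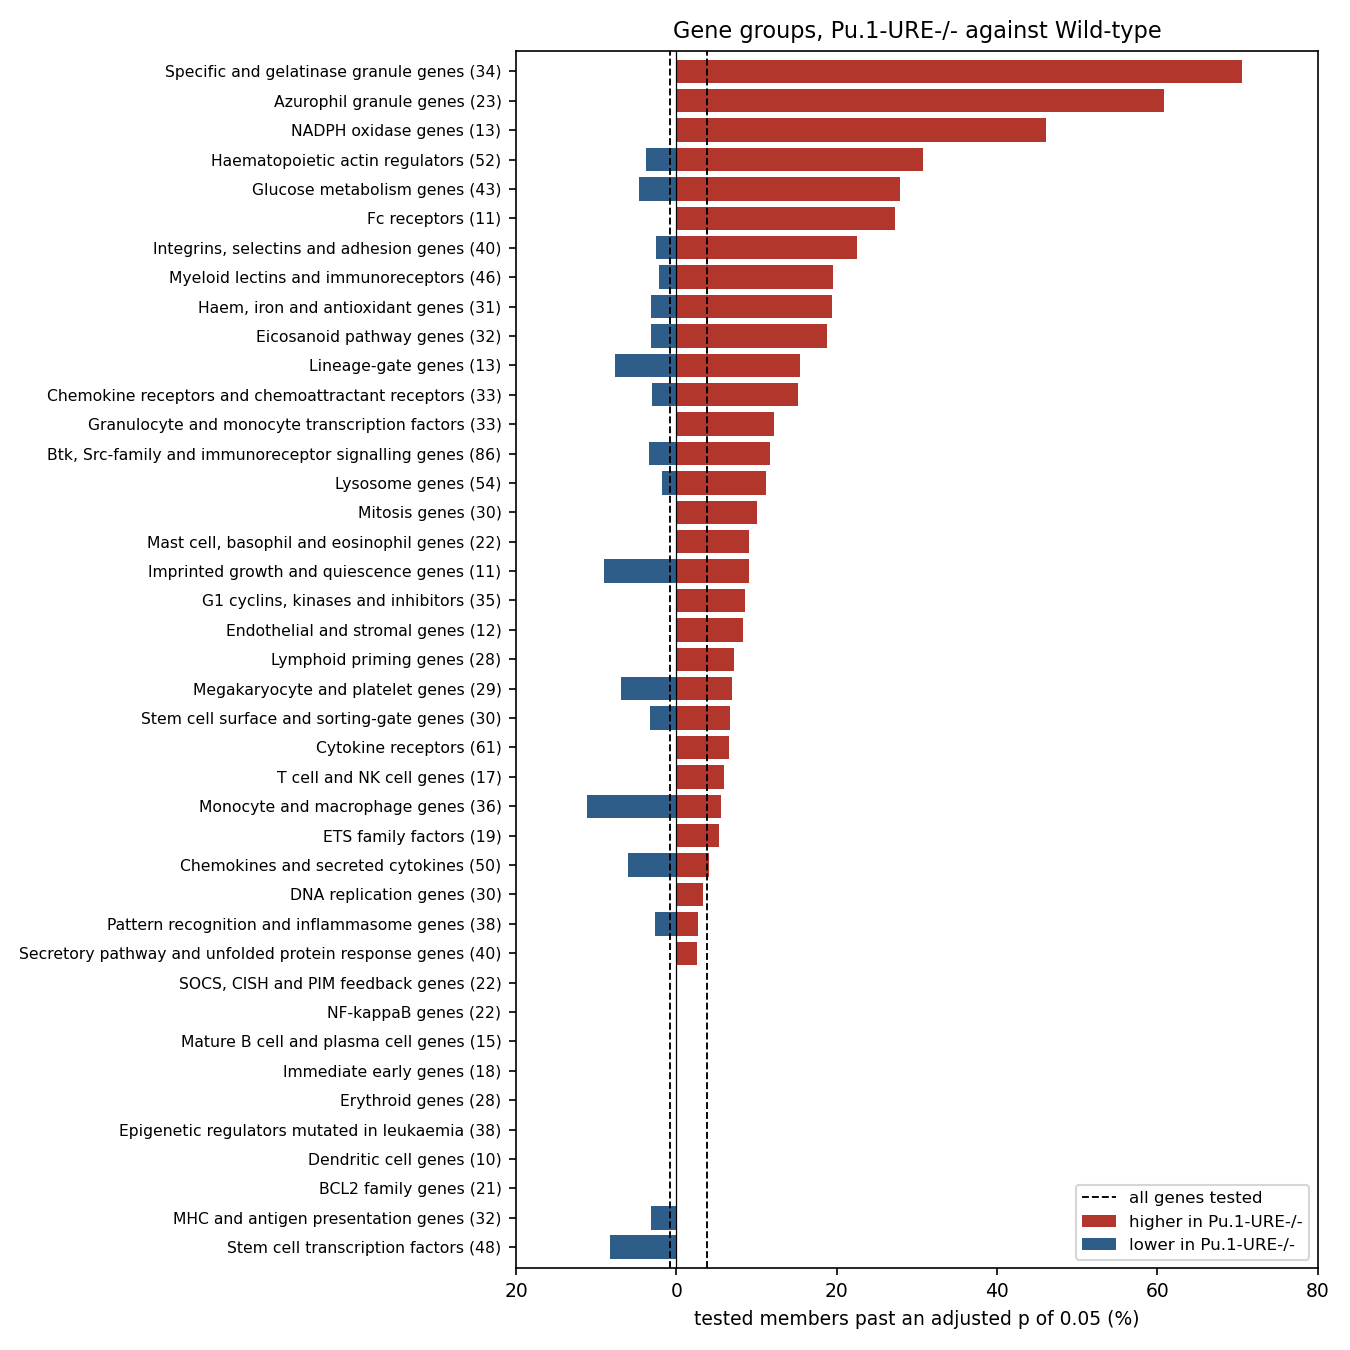
Percent of the tested members of each gene group (number tested in brackets; groups with at least 10) that were called higher in Pu.1-URE-/- (red, right of 0) or lower (blue, left of 0). The dashed lines mark all genes tested, at 3.84% higher and 0.866% lower. Granule and NADPH oxidase genes lie furthest from the line for higher, and monocyte and macrophage genes from the line for lower.

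Pu.1-URE-/- 2 was the lowest of the 3 in 502 of the 577 genes called higher (87.0%), against 36.5% of all genes tested. It was the highest of the 3 in 74 of the 130 genes called lower (56.9%), against 37.3% of all. It was the lowest in all 14 azurophil and all 24 specific and gelatinase granule genes called higher, in 15 of the 16 actin regulators and in 11 of the 12 glucose metabolism genes. Pu.1-URE-/- 2 thus lay between the other Pu.1-URE-/- libraries and Wild-type for most of these genes. The summed neutrophil lineage markers, given above, were lowest in the same library, and their part in this order was not tested. Leaving out Pu.1-URE-/- 2 gave 789 calls, of which 599 were among the 707.

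The comparison was repeated in mice with the Mdmx transgene, Mdmx-Tg/Pu.1-URE-/- against Mdmx-Tg, from 6 libraries that it does not share with the first. Sex was not matched in the repeat either. Y-linked expression stood at 205, 4.9 and 211 CPM in Mdmx-Tg/Pu.1-URE-/- and at 3.4, 3.2 and 4.2 CPM in Mdmx-Tg. With a Y-linked covariate 84 genes were called the same way in both comparisons, in place of 243. There 348 genes were called (2.32%), 251 higher and 97 lower. Of the 577 genes called higher without the transgene, 565 had a change above 0 with it and 194 were called again (33.6%, against 1.67% of all genes called higher there). Of the 130 called lower, 125 had a change below 0 and 49 were called again (37.7%, against 0.646% of all genes). None was called in the opposite direction. Both comparisons used the same fit and the same estimate of spread for each gene, so their calls were not independent. The median log2 change of the genes called higher was 2.19 here and 1.31 with the transgene, and that of the genes called lower was -1.72 here and -1.27 with it. The genes were chosen by the first of these values, so the smaller second value is not evidence of a weaker effect. In the test of the difference between the backgrounds 0 genes passed (smallest adjusted p 0.681), with 871 at an unadjusted p below 0.05. Among the members named above, Camp changed by 14.71, Elane by 5.43 and Vcam1 by 6.85 on the log2 scale in the Mdmx-Tg background, and Tbxas1 by -5.79, Btk by -3.11 and Serpinf1 by -5.35. Cebpa changed by 1.38 there (adjusted p = 0.128), against 4.48 without the transgene, and the difference did not pass (interaction adjusted p = 0.681). Other genes named above as rises were not called there either. Il1r2 changed by 4.30 (adjusted p = 0.137) and Lyz2 by 0.31 (adjusted p = 0.7455). Alox5 changed by 2.74 (adjusted p = 0.215) and Thbs1 by 1.22 (adjusted p = 0.263). Of the granule genes called higher, 12 of 14 azurophil and 17 of 24 specific and gelatinase genes were called again. Of the 16 actin regulators 3 were called again, and of the 12 glucose metabolism genes 3.

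**Figure D5:**
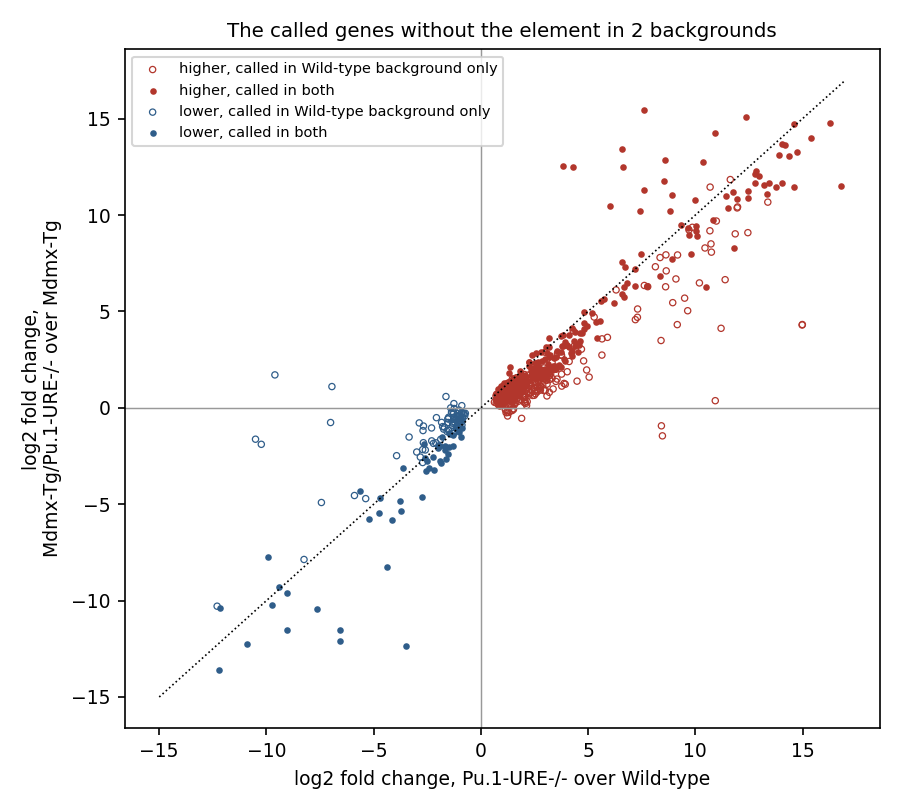
Log2 fold change of the genes called between Pu.1-URE-/- and Wild-type (horizontal axis) against their log2 fold change between Mdmx-Tg/Pu.1-URE-/- and Mdmx-Tg (vertical axis), red for genes called higher and blue for those called lower, filled where the second comparison called them too. The dotted line marks equal change, and values beyond 10 on either side include genes without a read in a genotype, whose fitted change depends on the prior count.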

How the data were processed

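Per the labels' protocols, the RNA came from RNeasy micro columns, its polyA fraction was enriched, and it was read in pairs on the BGISEQ-500. The submitters' processing notes name FastQC, Salmon and DESeq2 and the builds mm10 and GRCm38, with no versions. Per the file headers, the deposited files hold Salmon's estimated counts (expected counts) per transcript, TPM as the authors computed them, and lengths. Estimated counts were summed per gene with GENCODE M21 (115995 of 116248 transcripts matched) and rounded, and TPM were summed per gene. edgeR 4.0.16 in R 4.3.3 gave each genotype its own mean in a quasi-likelihood fit of all 12 libraries, after filterByExpr (minimum count 10, total 15) and TMM scaling. Adjusted p-values are Benjamini-Hochberg over 15012 genes, with a threshold of 0.05. The tool was tested on simulated data. Folds against a group with no read are bounds that set the group's total to 3 reads. The gene groups are 43 lists (1318 genes, 1155 tested). Named genes followed a rule: Spi1 and its neighbours within 250 kb, the gate genes, the 15 largest rises and falls with mean log2 CPM of at least 2 and separate groups, and up to 4 members a direction per list with the smallest p. The text names a subset. The comparison, the lists and the rule were chosen with earlier results of these data known. Families of near-identical genes may share reads, and counts may mix overlapping genes, since no strand setting is given in the sources used here. Alternatives, with their effect below, were relative log expression factors, DESeq2 1.42.0, 2 other low-count filters, 6 libraries only, a replicate block, a length offset, no immunoglobulin genes, a Y-linked covariate, robust estimation and each library left out. After the data were seen, leaving out both Wild-type libraries with over 10% immunoglobulin reads was added. Python 3 drew the figures.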

Additional observations from a re-analysis of the deposited data

How the results depend on the processing

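The count of 707 genes (577 higher, 130 lower) was 1869 with DESeq2 (1175 and 694, or 62.9% higher in place of 81.6%), and 703 of the 707 were among them. Fitting only the 6 libraries gave 1034 calls, with 276 lower. Leaving out 1 library gave 299 to 789 calls, 263 to 591 higher and 36 to 198 lower. The fewest calls came without Wild-type 2 (299), and 303 came without Pu.1-URE-/- 3, 317 without Pu.1-URE-/- 1, 394 without Wild-type 3 and 502 without Wild-type 1. With both Wild-type libraries over 10% immunoglobulin reads left out, an alternative added after the data were seen, 23 genes were called (21 higher, 2 lower), 19 of them among the 707. A single Wild-type library was left there, assumed to vary like the other groups. The 8 other alternatives gave 556 to 778 calls. Genes called again in the Mdmx-Tg background numbered 243, or 700 with DESeq2, 84 with the Y-linked covariate, 140 to 240 without 1 library and 19 without both Wild-type libraries, and could not be counted from the 6 libraries alone. The log2 change of Spi1 was -0.31, or 0.52 with the replicate block, -1.01 to 1.05 without 1 library and 0.79 without both Wild-type libraries, and it passed nowhere. That of Ly6a was 0.12, or -0.35 to 1.21 without 1 library, below 0 without Pu.1-URE-/- 3, Wild-type 2 or Wild-type 3. Of 144 named genes called, 80 stayed called whichever library was left out, 14 under every alternative, and none changed direction. Replicate numbers did not pair the libraries: deviations of same-numbered libraries correlated at -0.105, -0.0365 and -0.153. The replicate block gave 690 calls (548 higher, 142 lower), 586 of them among the 707. The causes of these shifts were not tested.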
